A study of Mus musculus with 20 samples.

Results

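The Cyp4 genes described here are 10 cytochrome P450 genes of mouse liver, namely Cyp4a10, Cyp4a12a, Cyp4a12b, Cyp4a14, Cyp4a31, Cyp4a32, Cyp4f13, Cyp4f14, Cyp4f15 and Cyp4v3. They were chosen by their gene symbols, as classic targets of PPARα and their relatives, and make up 10 of the 22298 genes listed. Liver RNA of 20 Lepr db/db mice, all male, was sequenced with 1 library per mouse and 5 mice per group. All mice lacked a working leptin receptor, and all received an AAV8 vector by the tail vein at 5 weeks of age, either with a non-targeting shRNA (Vec) or with 4 shRNAs in 1 vector against PPARγ (shRNA). The labels name the knockdown only as one of PPAR, and the study's methods give PPARγ. Benzbromarone (BBR), a urate-lowering drug for gout that is also a weak activator of PPARα and PPARγ, was given by gavage at 25 mg per kg once daily for 4 weeks in the Vec+BBR and shRNA+BBR groups. The Vec and shRNA groups received the carboxymethyl cellulose vehicle alone. Tissue was taken after a fast, and no lean mice were part of these 20, so every value below belongs to obese, diabetic males that carried a viral vector. The promoter that drove the shRNAs is not given in the sources used here.

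Cyp4 enzymes sit in the membrane of the endoplasmic reticulum and oxidise the far (omega) end of a fatty acid chain, with electrons from NADPH that cytochrome P450 reductase hands over. Alcohol and aldehyde dehydrogenases then turn the hydroxylated fatty acid into a dicarboxylic acid, which peroxisomes shorten. In liver, Cyp4a10 and Cyp4a14 are the textbook genes switched on by PPARα in fasting and by fibrate drugs. Cyp4a12a makes the arachidonic acid product 20-HETE and is higher in male mice. The Cyp4f enzymes hydroxylate leukotriene B4 and long-chain fatty acids, and Cyp4v3 is the mouse counterpart of the human gene CYP4V2.

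Several members are near-identical copies of each other, and the sequences show how far their reads can be told apart. All 6 Cyp4a members lie side by side on chromosome 4, from position 115299046 (start of Cyp4a12a) to 115621602 (end of Cyp4a32) in GRCm38. Cyp4f15, Cyp4f14 and Cyp4f13 lie on chromosome 17, from 32685627 to 32703352, 32905070 to 32917342 and 32924688 to 32947402, and Cyp4v3 lies on chromosome 8 from 45304944 to 45333216. The coding sequence of Cyp4a10 was 96.6% identical to that of Cyp4a31 and 97.19% identical to that of Cyp4a32, and Cyp4a12a was 98.49% identical to Cyp4a12b. Cyp4a10 and Cyp4a14, by contrast, shared 76.77% of aligned coding bases. The stretch of 45 coding bases around the codon of the cysteine that binds the heme iron, the best conserved part of a P450, is shown first (5′ to 3′, GENCODE M21 transcripts), with capitals at bases that differ from Cyp4a10 in the Cyp4a genes and from Cyp4f14 in the others.
Cyp4a10: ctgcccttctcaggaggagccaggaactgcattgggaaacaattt
Cyp4a31: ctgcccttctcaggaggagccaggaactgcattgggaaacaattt
Cyp4a32: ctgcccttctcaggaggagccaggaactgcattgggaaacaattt
Cyp4a12a: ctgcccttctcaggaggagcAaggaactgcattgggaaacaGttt
Cyp4a12b: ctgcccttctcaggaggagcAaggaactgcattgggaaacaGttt
Cyp4a14: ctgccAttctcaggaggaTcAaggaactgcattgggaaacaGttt
Cyp4f14: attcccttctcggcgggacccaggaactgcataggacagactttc
Cyp4f13: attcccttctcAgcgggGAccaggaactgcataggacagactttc
Cyp4f15: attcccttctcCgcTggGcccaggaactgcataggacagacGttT
Cyp4v3: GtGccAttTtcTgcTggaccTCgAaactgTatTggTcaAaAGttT
Here Cyp4a10, Cyp4a31 and Cyp4a32 had the same letters throughout, as had Cyp4a12a and Cyp4a12b, whereas Cyp4v3 differed from Cyp4f14 at 16 of 45 bases. A read that lay wholly within this stretch could not be assigned to 1 of these copies.

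The window of 60 coding bases in which the copies differ most (coding bases 202 to 261 in the first 3, and 625 to 684 in the last pair) shows where their reads do part, with capitals at every position that differs within the set.
Cyp4a10: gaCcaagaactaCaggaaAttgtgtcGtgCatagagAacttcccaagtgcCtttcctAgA
Cyp4a31: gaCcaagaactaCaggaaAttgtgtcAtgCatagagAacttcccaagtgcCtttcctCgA
Cyp4a32: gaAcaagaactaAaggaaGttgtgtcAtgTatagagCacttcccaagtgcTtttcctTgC
Cyp4a12a: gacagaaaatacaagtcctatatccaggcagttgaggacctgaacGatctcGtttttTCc
Cyp4a12b: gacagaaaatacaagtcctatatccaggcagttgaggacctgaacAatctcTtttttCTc
Even there, 9 positions of 60 differed among the first 3 genes and 4 between the Cyp4a12 pair. Of all windows of 100 bases in the transcript used, 12.74% in Cyp4a10, 8.216% in Cyp4a31, 20.06% in Cyp4a32, 35.82% in Cyp4a12a and 36.24% in Cyp4a12b occur exactly in a transcript of another gene. No window of Cyp4a14 or of the 3 Cyp4f members does. A deposited count that is not whole holds divided reads. The count of Cyp4a14 was a whole number in all 20 libraries, while those of Cyp4a10, Cyp4a31 and Cyp4a32 were whole in 0 of 20 and those of Cyp4a12a and Cyp4a12b in 1 of 20. Some reads were also divided for Cyp4f14, Cyp4f13 and Cyp4f15, whole in 19, 16 and 15 of 20 libraries although they share no such window, and for Cyp4v3, whole in 7. The split between near-identical copies is therefore uncertain, and the comparisons are also given for the copies summed.

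Total counts per library ran from 17432903 to 25024094, and all 10 members passed the filter on low counts, which left 12342 genes. Levels within a gene are given as CPM, the count scaled to a common library size, and a gene was called higher or lower at an edgeR adjusted p under 0.05. The libraries farthest from their group mean over all tested genes were Vec replicates 4, 3 and 2, with a root mean square deviation of 0.346, 0.330 and 0.308 on the log2 scale. The others lay between 0.190 and 0.277. Values without Vec replicate 3 or 4 are given where those livers stood out. The targeted gene Pparg, the lipid-storing receptor of this family, was at 24.8 ± 8.63 CPM in Vec, 31.8 ± 4.57 in Vec+BBR, 5.73 ± 1.53 in shRNA and 13.9 ± 6.22 in shRNA+BBR livers (SD, n = 5 each). Its highest shRNA value (7.31 CPM) lay below the lowest Vec value (16.4 CPM), whereas shRNA+BBR reached 21.8 CPM. Defining hepatocyte genes made up between 99021 and 158165 CPM in all 20 libraries, and none of the 7 stayed at or under 3 counts.

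Between genes, levels are compared per transcript length, as the authors' FPKM. In Vec livers Cyp4a10 and Cyp4a14 led, with medians of 1108 and 751 FPKM (ranges 811 to 1225 and 622 to 1045), which overlapped. Cyp4a12a followed at a median of 437 FPKM (129 to 516) and Cyp4v3 at 141 FPKM (119 to 154), and Vec replicate 4, with its 129 FPKM, made these 2 ranges overlap. Cyp4f14 (median 96.5 FPKM, 38.4 to 104) and Cyp4f15 (74.0 FPKM, 45.6 to 95.5) also overlapped. Next, below Cyp4f15 without overlap, came Cyp4f13 with a median of 27.9 FPKM (23.1 to 32.1). Cyp4a12b with 12.3 FPKM overlapped Cyp4f13, and Cyp4a32 with 11.4 FPKM overlapped Cyp4a12b. Cyp4a31 had the lowest median at 6.74 FPKM (5.79 to 7.92), a range that the lowest Cyp4a12b liver (5.81 FPKM) fell into. More than 2 orders of magnitude thus separated the 2 fasting-induced enzymes from Cyp4a31. The order at the top differed between groups: in Vec+BBR livers Cyp4a14 (990 to 1227 FPKM) lay above Cyp4a10 (716 to 868 FPKM) with no overlap, and in shRNA livers Cyp4a10 (868 to 1430 FPKM) lay above Cyp4a14 (622 to 808 FPKM) with none. In shRNA+BBR livers the 2 genes overlapped, at 688 to 1306 FPKM for Cyp4a14 and 673 to 1452 FPKM for Cyp4a10.

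**Figure D1:**
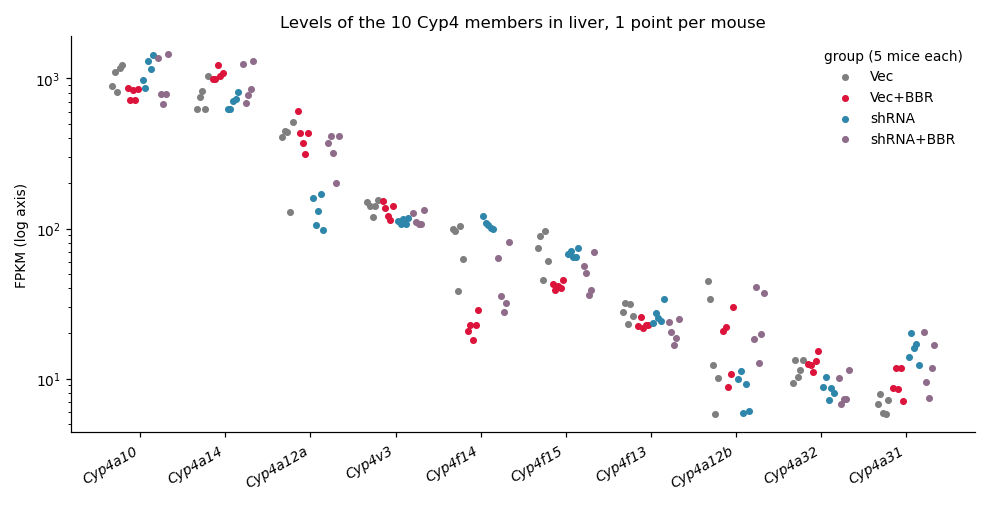
FPKM of the 10 members on a log axis, 1 point per mouse, coloured by group (5 mice each) and ordered by the Vec median. Cyp4a10 and Cyp4a14 sit near 1000 FPKM and Cyp4a31 and Cyp4a32 near 10, and Cyp4f14 drops to 17.9 to 28.7 FPKM in Vec+BBR.

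With BBR in Vec mice the 3 Cyp4f members, of a family of leukotriene and fatty acid hydroxylases, fell. Of the 10 members, 3 were lower in Vec+BBR than in Vec and 0 were higher, and the 3 were the Cyp4f members (background 7.88% of all tested genes lower and 7.58% higher). The median log2 difference over the 10 members was −0.30, against −0.01 over all genes tested. Cyp4f14 (ENSMUSG00000024292) read 226, 234, 88.6, 220 and 138 CPM in Vec replicates 1 to 5, and 46.7, 41.8, 39.1, 44.6 and 60.3 CPM in Vec+BBR. Every treated liver lay below every Vec liver, of which replicate 3 was the lowest. The log2 fold change was −1.96 (SE 0.27, edgeR adjusted p = 0.000153), a fall to 0.257 of the Vec level. Without any 1 library it ran from −2.14 (without Vec replicate 3) to −1.86 (without Vec replicate 2). In RNA of whole liver, as here and in all values below, fewer cells of a type and less RNA per cell cannot be told apart.

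Cyp4f15 (ENSMUSG00000073424) went from 166, 214, 102, 201 and 130 CPM in Vec to 93.2, 72.3, 86.5, 78.7 and 93.8 CPM in Vec+BBR. The 2 groups did not overlap, and Vec replicate 3 was again the lowest of its group. The log2 fold change was −0.94 (SE 0.17, edgeR adjusted p = 0.00144). Leaving out 1 library gave −1.08 (without Vec replicate 3) to −0.83 (without Vec replicate 2). Cyp4f13 (ENSMUSG00000024055) stood at 51.2, 62.3, 42.1, 52.6 and 45.0 CPM in Vec and at 38.9, 36.3, 35.2, 35.0 and 37.7 CPM in Vec+BBR, also with no overlap. Its log2 fold change was −0.47 (SE 0.11, edgeR adjusted p = 0.00841). This call was the only one of the 3 lost under an alternative, with limma on log2(FPKM + 1), where the adjusted p was 0.108. In that limma fit the median over all genes was 0.082 for this comparison, with 1638 genes higher and 384 lower. The edgeR fit had 936 higher and 972 lower. The summed level of the 3 Cyp4f members was 395 ± 117 CPM in Vec and 168 ± 16.8 CPM in Vec+BBR (SD, n = 5).

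With the knockdown vector in place, BBR lowered Cyp4f14 from 258, 224, 227, 209 and 210 CPM in shRNA to 133, 79.0, 58.8, 67.5 and 165 CPM in shRNA+BBR. The groups did not overlap, and replicates 1 and 5 of shRNA+BBR were the highest of their group. The log2 fold change was −1.17 (SE 0.26, edgeR adjusted p = 0.00857). Cyp4f13 was 39.6, 45.6, 42.3, 39.9 and 54.5 CPM in shRNA and 39.2, 36.2, 28.4, 30.9 and 40.1 CPM in shRNA+BBR, overlapping, with a log2 fold change of −0.34 (SE 0.11, edgeR adjusted p = 0.0439). This call is fragile: it was lost without any 1 of Vec replicate 1, Vec+BBR replicates 2 to 5, shRNA replicates 2 to 5 or shRNA+BBR replicates 2 to 4, and also with no filter, with only 2 groups fitted and with limma, and over all alternatives the adjusted p ran from 0.0254 to 0.137. Cyp4f15 was at 143, 144, 136, 132 and 154 CPM in shRNA and 115, 109, 76.9, 80.8 and 141 CPM in shRNA+BBR, with a log2 difference of −0.44 (SE 0.17) that did not pass (edgeR adjusted p = 0.0874). It passed without Vec replicate 3 (adjusted p = 0.0496) or without shRNA+BBR replicate 5 (adjusted p = 0.0283).

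Under BBR, knockdown livers held more Cyp4f14 than vector livers, with a log2 fold change of 1.11 for shRNA+BBR against Vec+BBR (SE 0.26, edgeR adjusted p = 0.0125). The shRNA+BBR values from 58.8 to 165 CPM overlapped the Vec+BBR values from 39.1 to 60.3 CPM at 1 liver. Without BBR, knockdown changed none of the 3 Cyp4f members past the threshold (Cyp4f14 log2 difference 0.32, SE 0.26, Cyp4f15 −0.20, SE 0.17, Cyp4f13 −0.19, SE 0.11). The fall of Cyp4f14 with BBR was thus −1.96 in Vec and −1.17 in shRNA mice. The difference of these 2 effects was 0.80 (SE 0.36, 95% interval 0.08 to 1.51), with an edgeR adjusted p of 0.251, so it did not pass.

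**Figure D2:**
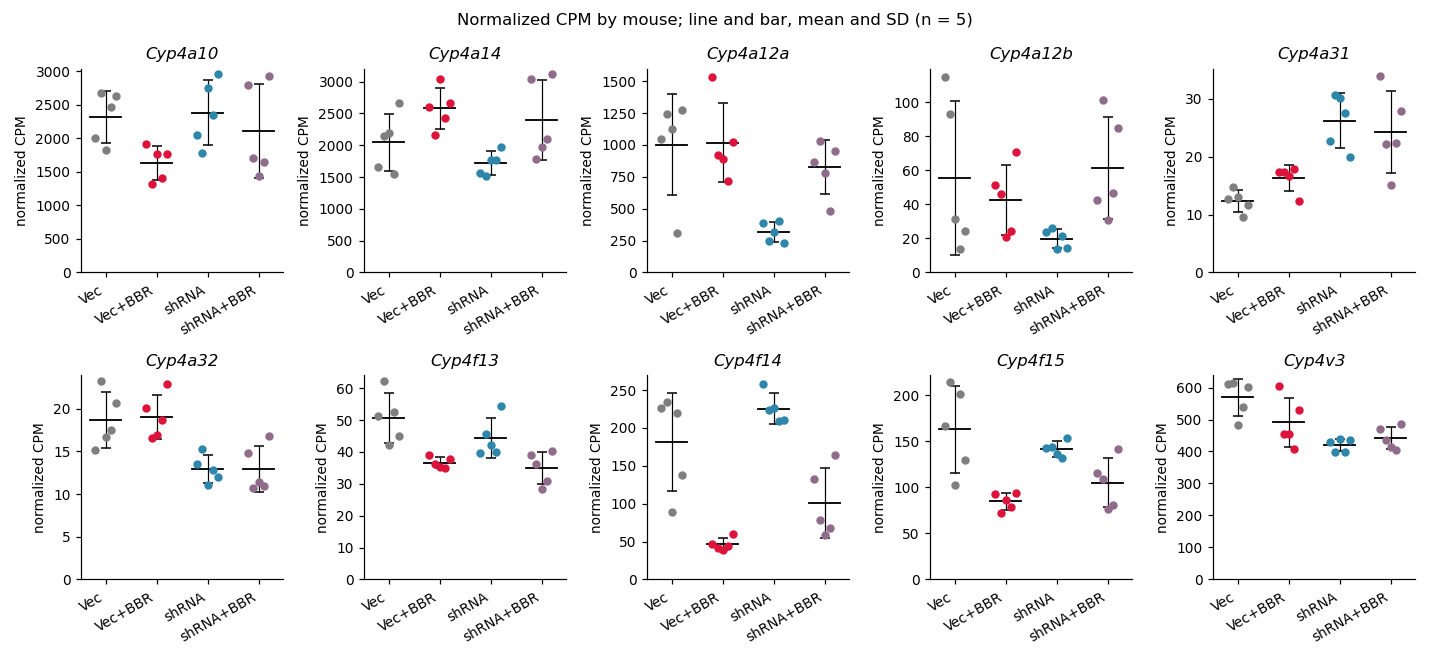
Normalized CPM of each member by mouse in the 4 groups, each axis from 0, with a line at the group mean and a bar of 1 SD (n = 5). The 5 Vec+BBR points of Cyp4f14, from 39.1 to 60.3 CPM, lie below all Vec points, and the 5 shRNA points of Cyp4a12a, from 233 to 402 CPM, lie below all but 1 Vec point.

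With PPARγ knockdown the largest change among the members was a fall of Cyp4a12a, the male-predominant 20-HETE synthase, and in knockdown mice BBR raised it. Between shRNA and Vec, 4 members were lower and 1 was higher (background 7.91% lower and 5.28% higher), with a median log2 difference of −0.23 over the members and −0.01 over all genes. Cyp4a12a (ENSMUSG00000066071) measured 1049, 1240, 1127, 313 and 1276 CPM in Vec and 390, 248, 317, 402 and 233 CPM in shRNA. Vec replicate 4 fell within the shRNA range, and the other 4 Vec livers lay far above it. The log2 fold change was −1.65 (SE 0.29, edgeR adjusted p = 0.000794), a fall to 0.318 of the Vec level. Without any 1 library it ran from −1.88 (without Vec replicate 4) to −1.55 (without Vec replicate 5).

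In shRNA+BBR livers Cyp4a12a was 869, 1031, 782, 483 and 954 CPM, above every shRNA liver without BBR. The log2 fold change against shRNA was 1.37 (SE 0.29, edgeR adjusted p = 0.00682), or 2.59-fold. In Vec+BBR livers it was 1534, 919, 889, 715 and 1027 CPM, which overlapped the Vec values, with a log2 difference of 0.02 (SE 0.29, 95% interval −0.54 to 0.59). Under BBR the knockdown difference was −0.30 (SE 0.29, edgeR adjusted p = 0.549). The effects of BBR in shRNA and in Vec mice differed by 1.35 on the log2 scale (SE 0.41, 95% interval 0.55 to 2.15), with an unadjusted p of 0.00335 and an edgeR adjusted p of 0.112, which does not pass. That difference passed without Vec replicate 4 (1.58, adjusted p = 0.0210) and with DESeq2 (1.35, adjusted p = 0.0349).

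Its copy Cyp4a12b (ENSMUSG00000078597) was far lower and more scattered, at 115, 93.5, 31.4, 13.9 and 24.6 CPM in Vec and 23.8, 26.2, 14.0, 21.5 and 14.4 CPM in shRNA, which overlapped. The log2 fold change was −1.48 (SE 0.48, edgeR adjusted p = 0.0446). The call was lost without Vec replicate 1 or 2, Vec+BBR replicate 2, any 1 of the 5 shRNA replicates or shRNA+BBR replicate 4, and also with only 2 groups fitted and with limma, with adjusted p up to 0.167. In Vec+BBR it was 51.7, 46.1, 21.0, 24.1 and 70.9 CPM, within the Vec range. In shRNA+BBR it was 42.7, 101, 31.2, 46.7 and 85.0 CPM, above every shRNA liver, with a log2 fold change of 1.62 (SE 0.48, edgeR adjusted p = 0.0289). This call was lost without shRNA replicate 3, 4 or 5 or shRNA+BBR replicate 2, with adjusted p up to 0.0777. Cyp4a12b took between 1.89% and 9.86% of the counts of the pair in any library. Summed, the pair moved as Cyp4a12a did, with a log2 fold change of −1.64 for shRNA against Vec (SE 0.29, edgeR adjusted p = 0.000846) and of 1.40 for shRNA+BBR against shRNA (SE 0.29, edgeR adjusted p = 0.00626).

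The most abundant members, the PPARα-induced Cyp4a10 and Cyp4a14, were each called in at most 1 comparison. Cyp4a10 (ENSMUSG00000066072) had 2002, 2676, 1820, 2471 and 2638 CPM in Vec and 1914, 1323, 1762, 1413 and 1759 CPM in Vec+BBR. Only Vec+BBR replicate 1 reached into the Vec range, and the log2 difference was −0.51 (SE 0.19, 95% interval −0.88 to −0.13, edgeR adjusted p = 0.0765), which did not pass. It passed without Vec replicate 3 (−0.59, adjusted p = 0.0392), with only the 2 groups fitted (adjusted p = 0.0424) and with DESeq2 (adjusted p = 0.0450). Cyp4a14 (ENSMUSG00000028715) had 1662, 2147, 2194, 1556 and 2664 CPM in Vec and 2609, 2166, 3037, 2434 and 2667 CPM in Vec+BBR. These groups overlapped, with a log2 difference of 0.34 (SE 0.16, edgeR adjusted p = 0.168). It passed only with limma on log2(FPKM + 1) (0.49, adjusted p = 0.0487), a fit whose median over all genes was 0.082.

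In shRNA livers Cyp4a10 was 2054, 1781, 2752, 2353 and 2958 CPM and in shRNA+BBR livers 2800, 1713, 1444, 1651 and 2934 CPM. The latter fell into a low set of replicates 2, 3 and 4 and a high pair of replicates 1 and 5. Cyp4a14 was 1557, 1516, 1769, 1772 and 1978 CPM in shRNA and 3038, 1782, 1974, 2094 and 3126 CPM in shRNA+BBR, where the same 2 livers were high. Its log2 fold change of 0.48 (SE 0.16, edgeR adjusted p = 0.0486) passed narrowly. It was lost without Vec replicate 2, Vec+BBR replicates 3 to 5, any 1 of the 5 shRNA replicates or shRNA+BBR replicate 1, 3, 4 or 5, and also with no filter and with limma, and the adjusted p reached 0.108. In neither gene did knockdown pass the threshold, with or without BBR: for shRNA against Vec the log2 difference was 0.04 in Cyp4a10 (SE 0.19) and −0.25 in Cyp4a14 (SE 0.16), and under BBR it was 0.37 (SE 0.19) and −0.10 (SE 0.16).

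Although neither gene passed in Vec mice, their ratio within a liver differed with BBR. The FPKM of Cyp4a10 divided by that of Cyp4a14 was between 0.982 and 1.88 in Vec (mean 1.39 ± 0.340, SD, n = 5) and between 0.687 and 0.868 in Vec+BBR (0.749 ± 0.0769). It was between 1.39 and 1.84 in shRNA (1.63 ± 0.180) and between 0.866 and 1.14 in shRNA+BBR (1.03 ± 0.121). In both vector backgrounds the groups with and without BBR did not overlap. The ratio was chosen after its values had been seen, so no test was made of it. About each group mean, Cyp4a10 and Cyp4a14 went up and down together (Spearman's rho 0.677 over 20 livers, which share libraries and normalization).

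**Figure D3:**
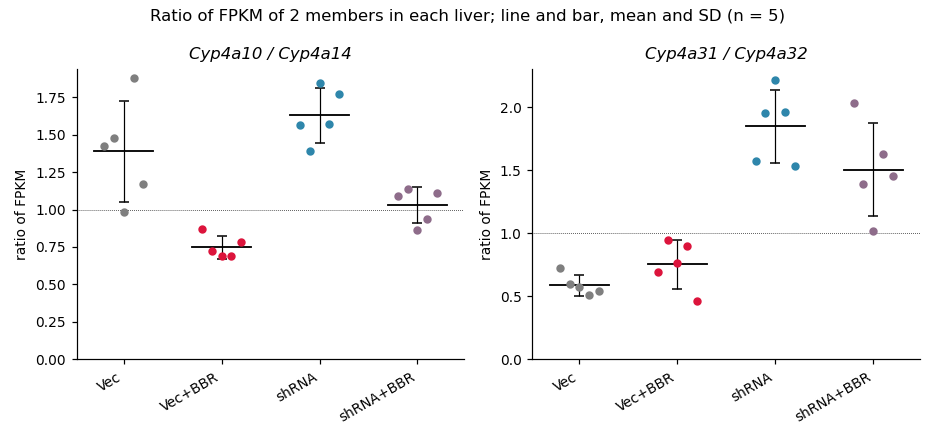
Ratio of FPKM within each liver for Cyp4a10 to Cyp4a14 (left) and Cyp4a31 to Cyp4a32 (right), with group mean and SD (n = 5) and a dotted line at 1. The left ratio reaches at most 0.868 in Vec+BBR and at least 0.982 in Vec, and the right one reaches at most 0.947 in both Vec groups and at least 1.02 in both shRNA groups.

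The 2 minor copies of Cyp4a10 went opposite ways with knockdown. Cyp4a31 (ENSMUSG00000028712) was 12.6, 14.7, 12.9, 9.63 and 11.7 CPM in Vec and 22.7, 30.7, 30.2, 27.6 and 19.9 CPM in shRNA. The groups did not overlap, and the log2 fold change was 1.09 (SE 0.18, edgeR adjusted p = 0.000315), or 2.13-fold. Cyp4a32 (ENSMUSG00000063929) was 15.2, 23.3, 16.7, 17.5 and 20.7 CPM in Vec and 13.5, 15.3, 11.1, 12.9 and 12.0 CPM in shRNA, a log2 fold change of −0.53 (SE 0.14, edgeR adjusted p = 0.0161). The lowest Vec liver met the highest shRNA liver, and the call was lost without Vec replicate 2 (−0.43, adjusted p = 0.0601) and with limma on log2(FPKM + 1) (adjusted p = 0.0603).

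Under BBR the same 2 genes again parted. Cyp4a31 was 17.4, 17.4, 16.7, 17.9 and 12.4 CPM in Vec+BBR and 34.0, 22.1, 15.0, 22.3 and 27.9 CPM in shRNA+BBR, with a log2 fold change of 0.57 (SE 0.17, edgeR adjusted p = 0.0442). This call was lost without Vec replicate 5, Vec+BBR replicates 2 to 5, shRNA replicate 4 or shRNA+BBR replicate 1, 2 or 5, and also with the replicate number as a block (adjusted p = 0.0605), with no filter, with only 2 groups fitted and with limma, where the adjusted p was 0.275. Cyp4a32 was 20.1, 16.6, 16.9, 18.7 and 22.9 CPM in Vec+BBR and 14.9, 10.8, 11.5, 11.0 and 16.8 CPM in shRNA+BBR, with a log2 fold change of −0.55 (SE 0.14, edgeR adjusted p = 0.0176). That call was lost without Vec+BBR replicate 5 or shRNA+BBR replicate 2 or 3, with adjusted p up to 0.0638. In shRNA+BBR against Vec+BBR, 2 members were higher and 1 was lower with knockdown under BBR (background 3.31% higher and 4.82% lower), with a median log2 difference of 0.12 over the members and −0.0041 over all genes tested.

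The FPKM ratio of Cyp4a31 to Cyp4a32 was 0.507 to 0.725 in Vec and 0.463 to 0.947 in Vec+BBR, against 1.53 to 2.22 in shRNA and 1.02 to 2.03 in shRNA+BBR. No liver with the knockdown vector overlapped a liver of the matching Vec group, and this ratio too was chosen after its values had been seen. Of the counts of the 3 copies, Cyp4a31 took at most 1.68% and Cyp4a32 at most 1.29% in any library. For the 3 copies summed, nothing passed: the log2 difference was 0.04 for shRNA against Vec (SE 0.19), 0.38 under BBR (SE 0.19), −0.17 for shRNA+BBR against shRNA (SE 0.19) and −0.50 for Vec+BBR against Vec (SE 0.19, edgeR adjusted p = 0.0726). The part of divided reads in the opposite changes of the minor copies was not tested.

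Cyp4v3 (ENSMUSG00000079057), the counterpart of CYP4V2, was 611, 614, 483, 539 and 600 CPM in Vec and 430, 399, 438, 398 and 436 CPM in shRNA. All shRNA livers lay below all Vec livers, and the log2 fold change was −0.44 (SE 0.10, edgeR adjusted p = 0.00583), called under every alternative run. It was 604, 455, 454, 409 and 531 CPM in Vec+BBR and 470, 437, 413, 405 and 487 CPM in shRNA+BBR. Neither BBR comparison passed for Cyp4v3 (log2 difference −0.21, SE 0.10, in Vec mice and 0.08, SE 0.10, in shRNA mice), although the first one did without Vec+BBR replicate 1 (−0.31, adjusted p = 0.0277). In all, 5.77% of its windows of 100 bases also occur in the annotated gene Gm45753.

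Across the BBR comparison in knockdown mice, 3 members were higher (Cyp4a12a, Cyp4a12b and Cyp4a14) and 2 were lower (Cyp4f13 and Cyp4f14), with a background of 8.37% higher and 7.28% lower. The median log2 difference over the members was −0.05, against 0.01 over all genes tested. By the interaction test, 0 of 10 members differed between the 2 BBR effects in edgeR, 4 had an unadjusted p under 0.05 (Cyp4a12a, Cyp4a12b, Cyp4a31 and Cyp4f14), DESeq2 called 1 (Cyp4a12a) and limma called 0. The background of that test was 0.146% of all tested genes in either direction at an edgeR adjusted p under 0.05. At an unadjusted p under 0.05, the cut-off by which the 4 members were counted, it was 2281 of 12342 genes. The 4 pairwise comparisons are not independent, since each group of 5 livers enters 2 of them.

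**Figure D4:**
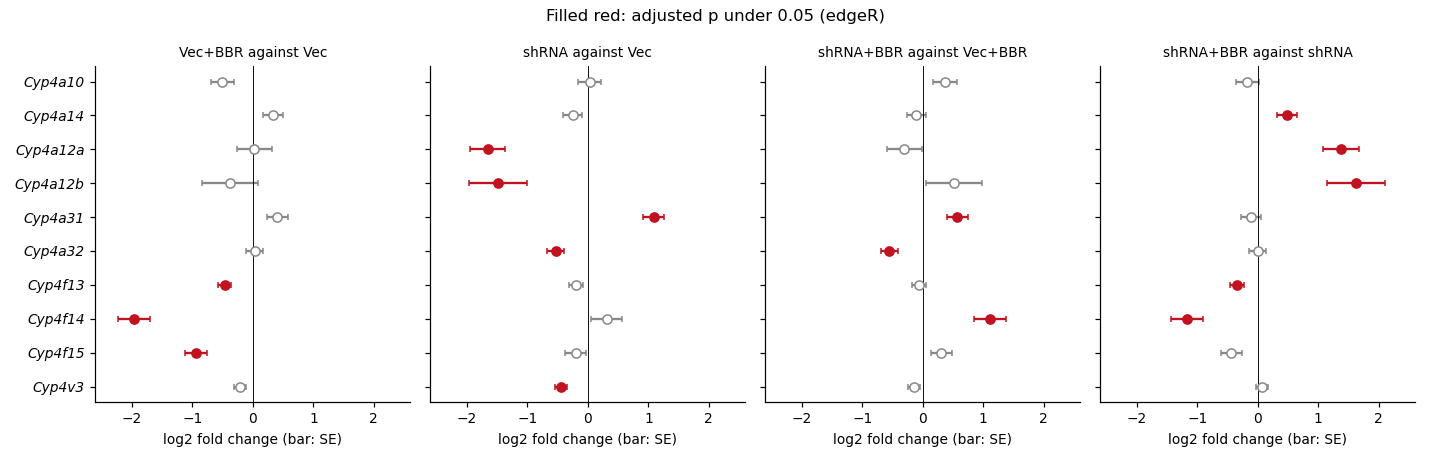
Log2 fold change with its standard error for each member in the 4 comparisons, filled red where the edgeR adjusted p was under 0.05. Cyp4f14 reaches −1.96 with BBR in Vec mice and Cyp4a12a −1.65 with knockdown, and no member is filled in all 4 comparisons.

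Within groups the 3 Cyp4f genes and Cyp4v3 had high rank correlations with each other. After the group means were removed, Spearman's rho over the 20 livers was 0.914 between Cyp4f13 and Cyp4f15, 0.841 between Cyp4f14 and Cyp4f15 and 0.716 between Cyp4f13 and Cyp4f14. Cyp4v3 had a rho of 0.732 with Cyp4f14, 0.711 with Cyp4f15 and 0.632 with Cyp4f13, and Cyp4a10 had a rho of 0.586 to 0.683 with these 4 genes. For Cyp4a12a and Cyp4a12b it was 0.450. Outside the family, the genes closest to Cyp4a10 by this measure were Dmgdh (rho 0.962), Mreg (0.902), Serpinb1a (0.896), Gcdh (0.880) and Slc47a1 (0.880). Those closest to Cyp4a14 were Gm45902 (0.880), Retsat (0.871), Fpgs (0.838), Atp5a1 (0.835) and Trap1 (0.833). Those closest to Cyp4a12a were Pgrmc1 (0.851), a heme-binding partner of P450 enzymes, Nat8 (0.826), Coq3 (0.798), Prnp (0.782) and Zfp35 (0.762). These are the highest of 12342 genes and share library and depth, so they are a description of these livers.

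Of the 10 other Cyp4 genes listed, 4 passed the filter, all of them low in liver. Cyp4b1, an enzyme better known from lung, was higher with BBR in Vec mice (5.45 ± 1.01 to 7.93 ± 1.22 CPM, log2 fold change 0.53, edgeR adjusted p = 0.0227) and with knockdown (7.78 ± 1.46 CPM, log2 fold change 0.51, edgeR adjusted p = 0.0330). Cyp4f16 was 2.91, 1.67, 2.55, 3.24 and 2.40 CPM in Vec and 6.81, 6.42, 4.99, 6.92 and 6.25 CPM in shRNA, a log2 fold change of 1.29 with no overlap (SE 0.17, edgeR adjusted p = 3.68e-05). It was also higher in shRNA+BBR than in Vec+BBR (log2 fold change 0.70, SE 0.16, edgeR adjusted p = 0.0125). Cyp4f17 and Cyp4f39 were not called in any comparison. With BBR in Vec mice the differences of these 4 genes were all above 0, unlike those of the 3 Cyp4f members, and only that of Cyp4b1 passed. Cyp4a30b and Cyp4f40 had no count in any library, which allows up to 3 counts in each, Cyp4a29, Cyp4f37 and Cyp4x1 had at most 1 count in a library, and Cyp4f18 had at most 14.

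Of the 4 electron donors of P450s, 1 was higher and 1 lower with BBR in Vec mice, and likewise in knockdown mice. Por, the cytochrome P450 reductase on which microsomal P450s depend, was 978 ± 292 CPM in Vec and 509 ± 43.4 CPM in Vec+BBR (log2 fold change −0.94, SE 0.17, edgeR adjusted p = 0.00114). In knockdown mice it went from 1023 ± 45.5 to 675 ± 160 CPM (log2 fold change −0.60, SE 0.17, edgeR adjusted p = 0.0239). Cyb5b, an outer mitochondrial cytochrome b5, was higher with BBR in Vec mice (0.37, edgeR adjusted p = 0.0343) and lower with knockdown under BBR (−0.53, edgeR adjusted p = 0.00876), and Cyb5r3, the cytochrome b5 reductase, was higher with BBR in knockdown mice (0.67, edgeR adjusted p = 0.0153). Cyb5a was not called.

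Downstream of the hydroxylation step, the fatty aldehyde dehydrogenase Aldh3a2 was called in all 4 pairwise comparisons. It was higher with BBR in Vec mice (log2 fold change 0.50, edgeR adjusted p = 0.0160) and in knockdown mice (0.51, edgeR adjusted p = 0.0182), and lower with knockdown without BBR (−0.45, edgeR adjusted p = 0.0315) and with it (−0.44, edgeR adjusted p = 0.0460). Its levels were 695 ± 198, 985 ± 50.1, 508 ± 39.2 and 724 ± 74.2 CPM in Vec, Vec+BBR, shRNA and shRNA+BBR. Of the 8 tested alcohol and aldehyde dehydrogenases, 1 was higher and 3 were lower with BBR in Vec mice (Adh4 −0.54, Aldh2 −0.42, Adh5 −0.30). With knockdown 0 were higher and 4 were lower, including Adh4 (−0.79), Aldh1a1 (−0.65) and Adh1 (−0.36). Under BBR, knockdown lowered 1, and in knockdown mice BBR raised 2, the other being Aldh1a1 (0.40).

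Genes listed for the peroxisomal handling of dicarboxylic acids went up with BBR and down with knockdown where they passed. Of the 13 tested, 3 were higher with BBR in Vec mice, namely Pex11a (0.61), a peroxisome division factor, Crot (0.60), the carnitine octanoyltransferase, and Ehhadh (0.55), the bifunctional enzyme, and 0 were lower. In knockdown mice BBR raised 7 and lowered 0, with Crat (1.11), Pex11a (0.67), Ehhadh (0.45) and Acot8 (0.45) the largest. Knockdown without BBR lowered 6 and raised 0, with Acaa1b (−0.85), Crat (−0.80), Acot8 (−0.39) and Scp2 (−0.36) the largest, and under BBR it lowered only Crot (−0.41). The list medians were 0.20, 0.35, −0.25 and −0.21 in that order, beside all-gene medians within 0.01 of 0.

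Other PPARα target genes behaved in part alike. Of 18 tested, 3 were higher and 2 lower with BBR in Vec mice, with Vnn1 (0.81), a pantetheinase, Acaa2 (−0.38), Hadhb (0.34) and Angptl4 (−0.30) the largest. In knockdown mice BBR raised 7 and lowered 0, including Fabp1 (1.25), the liver fatty acid carrier, Vnn1 (1.17) and Acsl1 (0.45), an acyl-CoA synthetase. Knockdown lowered 5 and raised 0, including Vnn1 (−1.23), Fabp1 (−1.02) and Angptl4 (−0.53). Under BBR, knockdown raised Acot1 (1.07), a cytosolic thioesterase, and lowered Vnn1 (−0.87) and Acadm (−0.31). Cyp4a10 and Cyp4a14, the best known targets of the same receptor, were not called in the comparisons in which Vnn1 fell. Nor were most of the 18 genes, of which 13 were not called with knockdown and 15 with knockdown under BBR.

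**Figure D5:**
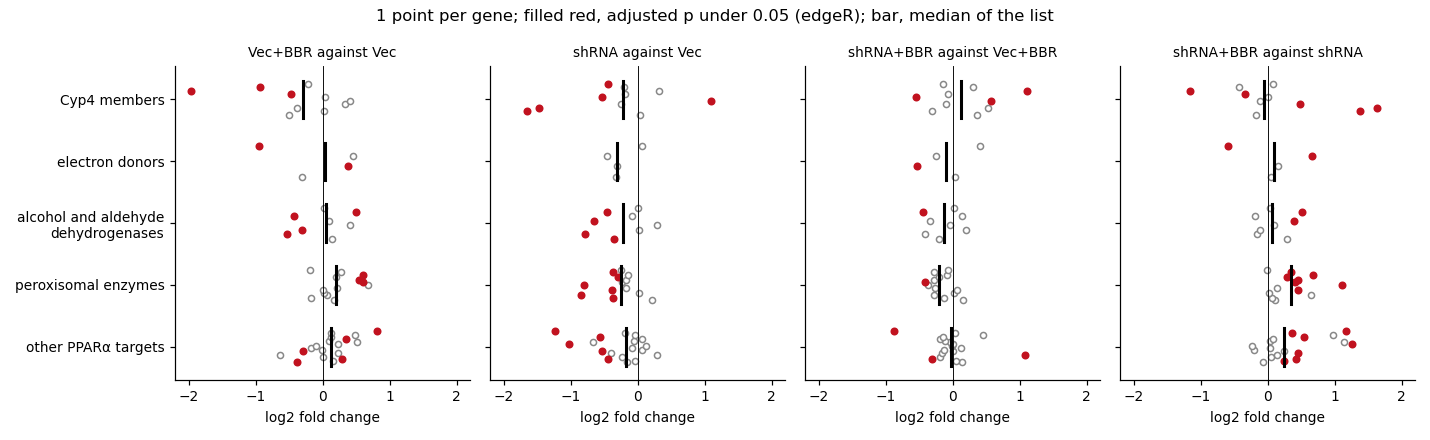
Log2 fold change of each tested gene of 5 lists in the 4 comparisons, 1 point per gene, filled red where the edgeR adjusted p was under 0.05, with a bar at the list median. The Cyp4 members spread from −1.96 to 1.62, while the called peroxisomal genes lie right of 0 in both BBR comparisons and left of it in both knockdown comparisons.

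The receptor Ppara varied widely between mice of a group, from 25.1 to 112 CPM in Vec, 33.2 to 81.7 in Vec+BBR, 44.6 to 68.3 in shRNA and 14.1 to 52.2 in shRNA+BBR, and was not called in any comparison. The Vec liver with the highest Ppara level, replicate 4, was the one with the lowest Cyp4a12a level. At this end of the Ppara range, the same did not hold in the other groups. The livers highest in Ppara there were Vec+BBR replicate 2, shRNA replicate 1 and shRNA+BBR replicate 1. Their Cyp4a12a levels of 919, 390 and 869 CPM were not the lowest of their groups. At the low end, Vec+BBR replicate 1 (Ppara 33.2 CPM) and shRNA+BBR replicate 2 (14.1 CPM) were lowest in Ppara. Both had the highest Cyp4a12a level of their group, 1534 and 1031 CPM. The livers lowest in Ppara in Vec (replicate 1) and shRNA (replicate 3) did not, at 1049 and 317 CPM. A link between the 2 genes was not tested. Of the partner receptors, Rxra was lower in shRNA+BBR than in shRNA (−0.43, edgeR adjusted p = 0.0441), and Ppard and Rxrb were not called. Pparg itself fell with knockdown (−2.12, edgeR adjusted p = 4.47e-05), also under BBR (−1.20, edgeR adjusted p = 0.00843), and rose with BBR in knockdown mice (1.28, edgeR adjusted p = 0.00773).

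Because Cyp4a12a is a male-predominant gene, genes with a sex bias in mouse liver are given beside it. Of 8 tested male-biased genes, 2 were lower with knockdown, Elovl3 (−1.09), a fatty acid elongase, and C6 (−0.74). Elovl3 rose with BBR in knockdown mice (0.95, edgeR adjusted p = 0.0260), as Cyp4a12a did, but 2 others, Cyp7b1 (−0.66) and Slco1a1 (at most 0.831 CPM in shRNA+BBR), fell. With BBR in Vec mice 2 were lower, Cyp7b1 (−1.34) and Slco1a1, and under BBR knockdown lowered Ugt2b38 (−0.48). Of 14 tested female-biased genes, 5 were lower and 0 higher with BBR in Vec mice, and 7 were lower and 0 higher in knockdown mice. With BBR in Vec mice the median of Cyp3a41a, a steroid hydroxylase, went from 148 to 2.68 CPM, and the sulfotransferases Sult2a1 (−3.70) and Sult2a2 (−3.53) fell too. Knockdown raised 2 of them without BBR (A1bg, 1.80, and Cyp3a44) and raised 5 and lowered 1 (Cyp2b9, −0.56) with it.

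Markers of the cell types of the liver are given beside these values. Of 7 hepatocyte genes, 2 were lower with BBR in Vec mice (Serpina1a −1.12, Fgb −0.48), and Serpina1a was also lower with knockdown (−0.46) and with BBR in knockdown mice (−0.50). Their summed level was 125242 to 158165 CPM in Vec and 99021 to 138724 CPM in Vec+BBR. Of 5 endothelial markers, 2 were higher with BBR in Vec mice (Pecam1 0.53, Cdh5 0.41) and 3 with knockdown (Stab2 0.64, Kdr 0.55, Clec4g 0.47), and 2 were lower with BBR in knockdown mice (Stab2 −0.51, Kdr −0.42), with summed levels of 69.8 to 95.2, 87.9 to 115, 99.6 to 130 and 83.5 to 114 CPM in Vec, Vec+BBR, shRNA and shRNA+BBR. Of 5 stellate cell markers, 2 were higher with BBR in Vec mice (Rgs5 1.04, Colec11 0.36), 1 was lower with knockdown under BBR (Rgs5 −0.62) and 1 was higher with BBR in knockdown mice (Lrat 0.75), with sums of 78.0 to 116 CPM in Vec and 126 to 145 CPM in Vec+BBR. Of 7 macrophage markers, 2 (Marco −3.03, Timd4 −0.78) were lower with BBR in Vec mice, of 4 cholangiocyte markers 0 were called, and of 2 tested neutrophil markers S100a8 was higher with BBR in knockdown mice (2.14). Adipocyte markers did not pass the filter, and their sum was at most 1.47 CPM. The part of these changes in the levels of the Cyp4 genes was not tested.

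RefSeq promoters (250 bases before to 50 after the start, GRCm38.p6) were found for 5 of the 10 members, Cyp4a32, Cyp4f13, Cyp4f14, Cyp4f15 and Cyp4v3. Neither the half-site AGGTCA that PPAR and RXR bind nor 2 of them in a row with 1 base between (AGGTCANAGGTCA) occurs in any of these windows on either strand. Of all 32851 promoters in the table, 16.3% hold the half-site and 0.0396% the repeat, and a missing match says nothing about the binding of a receptor there.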

How the data were processed

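Liver RNA was measured by poly(A) RNA sequencing (NEBNext Ultra, a kit that does not mark strand) in 20 libraries, grouped by their labels. Per the file headers, the authors deposited for each library an expected count per gene, with reads that match several genes divided, and an FPKM value scaled by transcript length and library size. The submitters' processing notes name mm10, and the aligner and counter are not given in the sources used here. Expected counts were rounded and fitted with edgeR 4.0.16 (R 4.3.3): TMM scaling, filterByExpr (minimum count 10), a mean for each of 4 groups, the quasi-likelihood test, and Benjamini-Hochberg adjustment over 12342 genes with a threshold of 0.05. Printed 95% intervals are normal intervals around the estimate from its SE. They are not adjusted for the number of genes tested, so an interval can leave out 0 where the adjusted p does not pass. Total counts had a median of 21409848 per library. Intervals and floors cover counting and replicate error only. Each library is 1 mouse. In the main fit, p-values set a group difference against the spread between mice, estimated over all 4 groups.

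The alternatives were RLE scaling, DESeq2 1.42.0, no filter, at least 10 counts in every library, only the 2 groups compared, the replicate number as a block, each library left out, limma 3.58.1 on log2(FPKM + 1) and near-identical copies summed. Transcripts and positions are from GENCODE M21 (GRCm38, the assembly of mm10), and motifs were searched on both strands. The genes named are the 10 members, the other Cyp4 genes, Ppara and Pparg, in each list the genes past the threshold or the 4 with the largest log2 fold change where more passed, and the 5 genes outside the family most correlated with Cyp4a14, Cyp4a10 and Cyp4a12a. Some genes that this rule would name are not reported here. Other named genes, such as those that were not called, were chosen after their values were seen. The members, gene lists and tests were chosen with earlier results of these data known.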

Additional observations from a re-analysis of the deposited data

Results flagged for a closer look

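Among the 40 groups of 5 values (10 members in 4 groups), 2 held a liver whose gap to the next one took up more of the range than Dixon's 95% limit for 5 samples, a limit that chance passes in about 1 group in 20. The first was Cyp4a12a in Vec replicate 4, at 313 CPM, with a gap of 0.765 of the range. The second was Cyp4a31 in Vec+BBR replicate 5, at 12.4 CPM, with a gap of 0.789 of the range.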

How the results depend on the processing

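Each of the 50 member results (10 members in 5 comparisons) was computed under up to 28 alternatives, 1365 values in all. Of these, 1259 kept direction and side of the threshold, 64 lost a call, 9 gained one and 33 changed sign, none of the last with an adjusted p under 0.05. Cyp4f14 in its 3 calls, Cyp4a12a, Cyp4a31 and Cyp4v3 with knockdown, Cyp4a12a with BBR in knockdown mice and Cyp4f15 with BBR in Vec mice kept their calls under every alternative run. Summing the copies could not test the calls of Cyp4a12a and Cyp4a31, which then have no value of their own. The sum that holds Cyp4a31 did not pass with knockdown (0.04, edgeR adjusted p = 0.915). The sum that holds Cyp4a12a passed in both comparisons (−1.64 and 1.40). The count of genes called with BBR in Vec mice was 1908, and 1178 with only 2 groups fitted. Without any 1 library it ran from 1237 (without Vec replicate 2) to 2395 (without Vec replicate 3). Likewise it ran from 1015 to 2284 for shRNA against Vec (main 1628), from 538 to 1217 for knockdown under BBR (main 1004), from 661 (without shRNA+BBR replicate 3) to 2527 for BBR in knockdown mice (main 1932) and from 5 to 122 (without Vec replicate 4) for the interaction (main 18). For the interaction DESeq2 called 337 genes and 1 member, and limma 28 genes. Members called for shRNA against Vec were 3 with limma and 3 to 5 without any 1 library. Under BBR they were 1 to 3 without any 1 library. For BBR in knockdown mice they were 3 with no filter or limma and 2 to 6 without any 1 library, and for the interaction 0 to 1. With near-identical copies summed, the remaining 5 members gave 1, 1 and 3 calls for shRNA against Vec, knockdown under BBR and BBR in knockdown mice, fewer members being tested. Otherwise the cause of a change was not tested.

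Some differences that had not passed the threshold changed sign. With limma, the log2 difference became 0.029 for Cyp4a12b with BBR in Vec mice, −0.051 and −0.079 for the interactions of Cyp4a14 and Cyp4f13, and −0.022 for Cyp4a32 with BBR in knockdown mice. The last was −0.0023 with no filter, −0.0072 with the replicate block and −0.0014 with DESeq2. Over all genes, the limma medians were 0.082 with BBR in Vec mice, −0.097 for the interaction and −0.010 with BBR in knockdown mice. Without any 1 library, differences with BBR in Vec mice ran from −0.21 to 0.13 for Cyp4a12a, −0.63 to 0.065 for Cyp4a12b and −0.046 to 0.12 for Cyp4a32. For shRNA against Vec, Cyp4a10 ran from −0.054 to 0.12, and under BBR Cyp4f13 ran from −0.12 to 0.012. With BBR in knockdown mice Cyp4a31 ran from −0.26 to 0.022 and Cyp4a32 from −0.11 to 0.067, and the Cyp4a32 interaction ran from −0.14 to 0.053.

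The labels number replicates 1 to 5 in every group, but no comparison had all same-numbered livers deviating together: the correlation of their deviations was over 0.1 in 1, 0, 0 and 3 of 5 pairs for BBR in Vec mice, shRNA against Vec, knockdown under BBR and BBR in knockdown mice. With the replicate number as a block, 1747, 1495, 940 and 1819 genes were called in that order and 21 for the interaction, and the only member call to change was that of Cyp4a31 under BBR.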
